A study of Homo sapiens with 6 samples.

Results

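The genes described here are 33 protein-coding targets of the transcription factor p53, read in 6 RNA-seq libraries of non-small cell lung cancer (NSCLC) cell lines. They were taken by symbol from a list of targets that was chosen with earlier results of these data known. All 33 were found among the 46427 genes of the table, and 32 of them were read in every one of the 6 libraries. The remaining member, SPATA18, had no read in either H1299 library. H460, H1299, and A549 are established NSCLC lines, and each gave 1 control library and 1 library of cells transfected with an siRNA against MALAT1 (siMALAT1), an abundant nuclear long non-coding RNA. The labels describe the control cells as not treated and the siMALAT1 cells as a MALAT1 knockdown, whereas the methods mention both negative controls and cells given a control siRNA, so the effect of transfection itself and that of the MALAT1 siRNA cannot be told apart. With 1 library for each line and condition, a p-value measures the spread between lines and not between cultures. MALAT1 was lower in the siMALAT1 library of each line, by log2 fold changes of -2.32 (H460), -2.96 (H1299), and -2.84 (A549). The libraries held 42506818 to 68515992 reads.

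p53 is held at a low level in unstressed cells by MDM2, an E3 ubiquitin ligase that marks it for degradation and that is itself a p53 target. When DNA is damaged or growth signals are abnormal, p53 accumulates, binds its response elements near target genes, and turns on genes for cell cycle arrest, DNA repair, cell death, and its own feedback. H1299 is widely used as a line without p53 protein, whereas H460 and A549 keep it, which is background knowledge about the lines and not something read from these libraries. Reads of a gene can therefore be compared between 1 line without p53 and 2 lines with it, but p53 status and every other difference between H1299 and the other lines cannot be told apart with 1 such line.

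Sequences matching the p53 consensus response element were looked for within 2500 bases on each side of the annotated starts, since the members were listed as direct targets of p53. The consensus is a pair of repeats placed end to end, 20 bases in all, and it reads the same on both strands. A match kept the central C and G of both repeats and had at most 2 other mismatches. RefSeq starts on GRCh38 were given for 27 of the 33 members, and 12 of the 27 (44.4%) had a match, where 4.57% of 11960 genes with a read in each library did. With no mismatch allowed, the shares were 7.41% and 0.0836%. Because the members were listed as direct targets, their higher share may follow from the choice of list and is not separate support for it. The members TNFRSF10B, TP53INP1, FBXO22, RRM2B, GADD45A, and PHLDA3 were not searched. The matches of the members that carry the baseline results below, with those of CDKN1A, MDM2, and ZMAT3 for comparison, read as follows in the direction of the gene, with the central C and G of each repeat in capitals.
PLK2: aaaCatGcctggaCttGccc
ZMAT3: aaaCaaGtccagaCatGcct
BTG2: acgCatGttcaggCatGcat
AEN: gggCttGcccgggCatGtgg
GDF15: catCttGcccagaCttGtct
SPATA18: ggaCatGtgtgtaCatGccc
CDKN1A: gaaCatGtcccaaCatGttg
MDM2: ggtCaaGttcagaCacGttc

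The PLK2 sequence (GRCh38 chr5:58462274-58462293, minus strand) and the ZMAT3 sequence (chr3:179070188-179070207, minus strand) had 0 mismatches and lay 2198 and 856 bases upstream of the nearest start. The other 6 each had 2 mismatches and are on the plus strand. They lay 1868 bases upstream of the start for BTG2 (chr1:203303642-203303661), 24 bases upstream for AEN (chr15:88621306-88621325), 840 bases upstream for GDF15 (chr19:18385308-18385327), and 662 bases downstream for SPATA18 (chr4:52051957-52051976). The deposited annotation begins GDF15 further upstream than the start used in the search, so this match lies inside the gene span given below. For CDKN1A (chr6:36676449-36676468) the match was 2256 bases upstream, and for MDM2 (chr12:68808923-68808942) it was 84 bases upstream. The members CCNG1, DDB2, FAS, and PMAIP1 also had a match. A match is a stretch of letters and does not show binding, and members without a match in this window may have an element elsewhere.

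**Figure D1:**
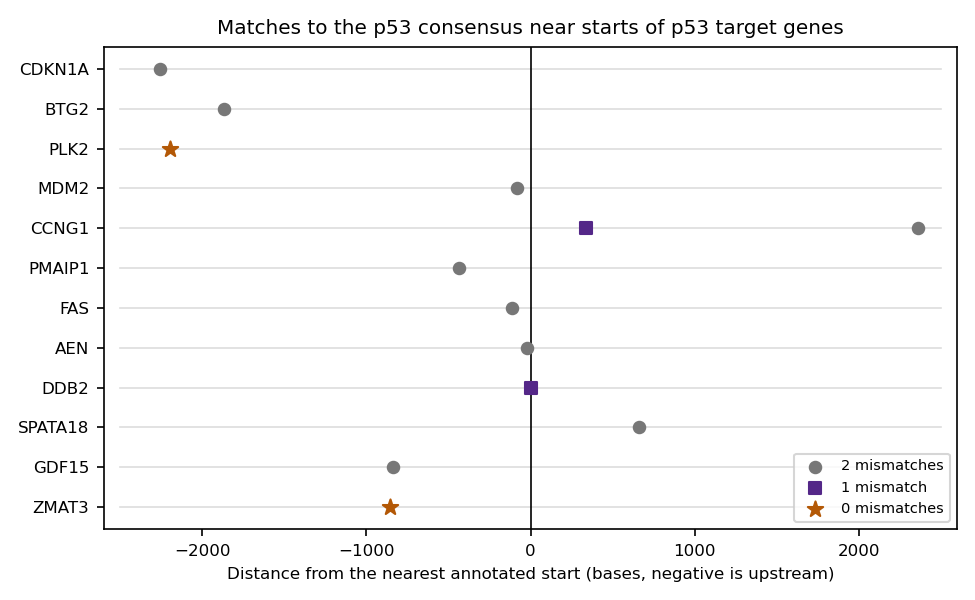
Position of each match to the p53 consensus (horizontal axis, bases from the nearest annotated start, negative upstream) for the 12 members with a match within 2500 bases (vertical axis). Stars mark 0, squares 1, and circles 2 mismatches. PLK2 and ZMAT3 have a match with 0 mismatches, and CCNG1 has 2 matches.

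The baseline comparison asked which p53 targets differed between H1299 and the p53-keeping lines without the siRNA. In the H1299 control, 9 genes stood below both other lines by at least 2-fold: BTG2, PLK2, PHLDA3, CYFIP2, AEN, PERP, TNFRSF10B, GDF15, and SPATA18. The lowest were PHLDA3, with 6 reads in H1299 against 986 in H460 and 1817 in A549, and SPATA18, with 0 reads against 132 and 349. The classic targets CDKN1A and MDM2 were within 2-fold of both lines, and no member was at least 2-fold above both. Values were compared as log2 of the read count, scaled for depth with DESeq2's median-of-ratios (RLE) size factors, plus 1, and 95% intervals are exact Clopper-Pearson intervals that cover counting error only.

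Among the 32 members with a read in each library, 8 were at least 2-fold below both lines, a share of 25%, where 9.47% of the 17834 genes with a read in each library were. With genes that had a read in any library, SPATA18 was added, giving 9 of 33 members against 8.82% of 31353 genes. In the direction of higher levels in H1299, 0 of 32 members passed, where 9.15% of genes did. Counted by direction alone, 21 of the 32 were below both lines (36.4% of all genes) and 6 were above both (37% of all genes). The median difference of the 32 members was -0.61 on the log2 scale against H460 and -0.81 against A549, where the median of all genes was 0.00 and 0.01. Between the 2 lines that keep p53, the members' median also differed, by 0.39 for A549 minus H460. The same 2-fold rule held in both the control and the siMALAT1 libraries for 6 of the 32 members, BTG2, PLK2, AEN, PHLDA3, CYFIP2, and GDF15, or 18.8%, against 6.86% of genes. TNFRSF10B and PERP did not meet it in the siMALAT1 libraries.

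The fold rule and the tests that follow use the same 3 control libraries, so neither is separate support for the other. The test over the 3 control libraries, edgeR's quasi-likelihood test of H1299 against the other 2 lines, has 1 residual degree of freedom. It called 0 of 33 members and 0 of 21942 genes (0%) at an adjusted p under 0.05, and the smallest adjusted p of any gene was 0.645. At an unadjusted p under 0.05 it gave 9 members, all lower in H1299 and the same 9 as above, where 7.35% of genes passed. DESeq2's Wald test called 7 members lower at an adjusted p under 0.05 (BTG2, PLK2, AEN, PHLDA3, CYFIP2, SPATA18, and GDF15), where 6.23% of genes passed in either direction.

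**Figure D2:**
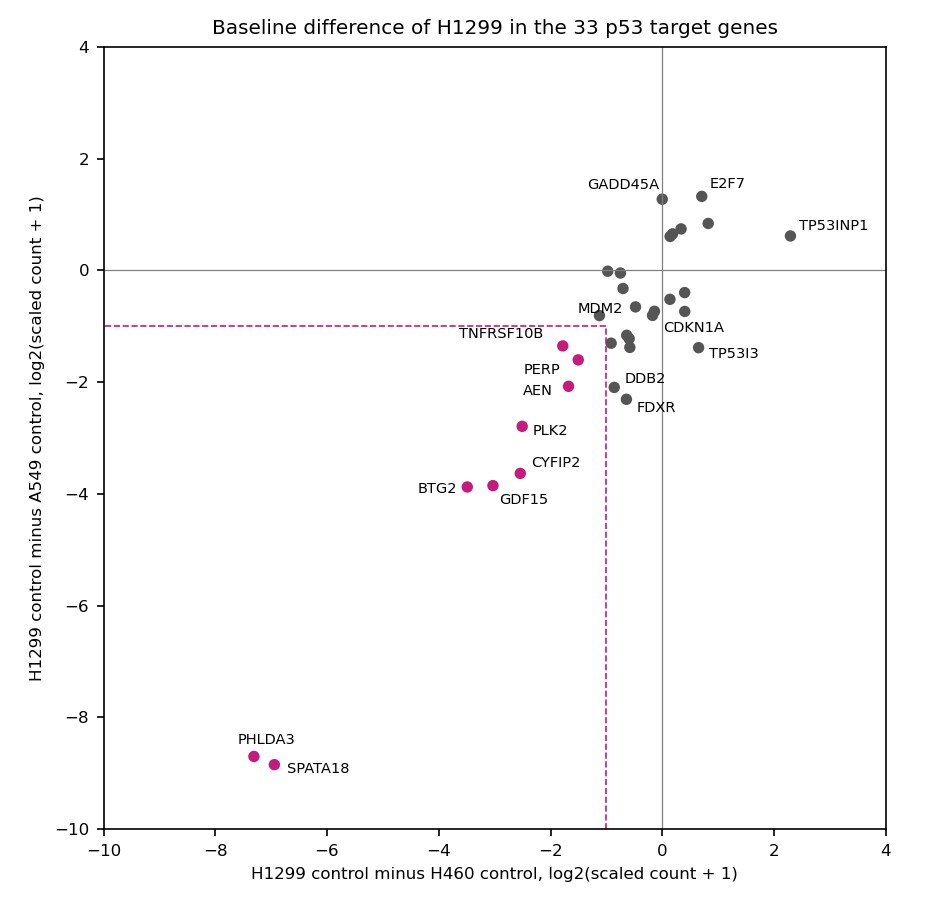
Difference of the H1299 control from the H460 control (horizontal axis) and from the A549 control (vertical axis) for the 33 members, in log2(scaled count + 1). Points in the dashed lower left corner, in magenta, are at least 2-fold lower than both, and PHLDA3, with 6 reads in H1299, and SPATA18, with 0, lie far from the rest.

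Of the 6 members with roles in cell cycle arrest, BTG2 and PLK2 were at least 2-fold below both lines in the H1299 control. By the same rule, 9.47% of the 17834 genes with a read in each library were. BTG2, an antiproliferative gene on chromosome 1 (203305519 to 203309602), had 560 reads in the H460 control, 57 in the H1299 control, and 514 in the A549 control, and 851, 56, and 963 after siMALAT1. The 2 H1299 libraries were below the 4 others, by 11.2-fold against H460 (log2 difference -3.49, interval -3.94 to -3.12) and 14.7-fold against A549 (-3.88, -4.33 to -3.51) in the controls. PLK2, a polo-like kinase gene on chromosome 5 (58453982 to 58460139), had 16380, 3362, and 14004 reads in the H460, H1299, and A549 controls and 12640, 4230, and 10757 after siMALAT1. It was 5.68-fold below H460 and 6.92-fold below A549, again with the H1299 libraries lowest. PLK2 is also the member of this set whose match to the consensus had no mismatch.

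CDKN1A encodes p21, the inhibitor of cyclin-dependent kinases through which p53 halts the cycle, and its pattern was different. It had 3093 reads in the H460 control, 3199 in the H1299 control, and 3364 in the A549 control, and 4032, 4792, and 3721 after siMALAT1. Scaled for depth, H1299 stood 1.13-fold below H460 and 1.75-fold below A549 in the controls, and in the siMALAT1 libraries its log2 difference was 0.08 (interval 0.02 to 0.14) from H460 and -0.09 (-0.15 to -0.03) from A549. CDKN1A was thus lowest in H1299 among the controls, by less than 2-fold, and lay between H460 and A549 among the siMALAT1 libraries. E2F7, a repressor of cell cycle genes, was higher in the H1299 control than in either line by 0.71 and 1.33 on the log2 scale. GADD45A, a stress gene of DNA repair and checkpoint control, equalled H460 (log2 difference 0.00) and was above A549 by 1.28, and PLK3, another polo-like kinase gene, was below H460 (-0.75) and close to A549 (-0.05).

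The 4 genes of feedback on p53 were within 2-fold of at least 1 line. MDM2 had 14153, 11855, and 11214 reads in the H460, H1299, and A549 controls and 10431, 8709, and 9566 after siMALAT1. Its log2 difference in H1299 was -0.48 from H460 and -0.65 from A549, or 1.39-fold and 1.57-fold lower. MDM2 also has a promoter that does not depend on p53. The gene count sums both, and the part of each promoter in these counts was not tested. PPM1D, the phosphatase WIP1 that dampens p53 signalling, differed by -0.14 and -0.73. CCNG1, cyclin G1, was higher in H1299 by 0.18 and 0.65, and FBXO22, an F-box protein of a ubiquitin ligase, was lower by -0.91 and -1.30.

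In the cell death group, 5 of 12 members were at least 2-fold below both lines, where 9.47% of the 17834 genes with a read in each library were. The group is small and was not tested, and the 5 act at different steps. PHLDA3, which blocks AKT at the membrane, had 6 reads in the H1299 control and 17 after siMALAT1, against 986 and 1086 in H460 and 1817 and 2018 in A549. The H1299 control was 159-fold below H460 (log2 difference -7.31, interval -9.03 to -6.46) and 416-fold below A549 (-8.70, -10.42 to -7.85). TNFRSF10B, the TRAIL death receptor DR5, had 17004, 5773, and 8862 reads in the H460, H1299, and A549 controls and 11627, 5975, and 8394 after siMALAT1. It was 3.44-fold below H460 and 2.55-fold below A549, and after siMALAT1 the log2 differences were -1.13 and -0.95.

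AEN, an apoptosis-enhancing nuclease, had 3842, 1401, and 3553 reads in the H460, H1299, and A549 controls and 3603, 1026, and 4203 after siMALAT1, or 3.20-fold and 4.21-fold lower in H1299. PERP, a membrane protein of desmosomes and p53-linked apoptosis, had 14801, 6090, and 11118 reads and 10279, 6957, and 8543 after siMALAT1. Its difference in the controls was 2.84-fold and 3.03-fold and narrowed to -0.74 and -0.75 on the log2 scale after siMALAT1. CYFIP2, a protein of the WAVE actin complex, had 1741, 348, and 2607 reads and 1637, 460, and 3137 after siMALAT1, which placed the H1299 control 5.82-fold below H460 and 12.4-fold below A549. The H1299 libraries held the lowest scaled count of all 6 for AEN, PERP, and CYFIP2.

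The BH3-only genes, whose proteins trigger apoptosis at the mitochondrion, did not share a direction. BBC3, which encodes PUMA, was lower in the H1299 control by -0.58 against H460 and -1.38 against A549 on the log2 scale. PMAIP1, which encodes NOXA, had 1655, 2440, and 877 reads in the H460, H1299, and A549 controls and was above both lines by 0.34 and 0.74. FAS, a death receptor, lay between the lines (0.40 and -0.40), and APAF1, the core of the apoptosome, was above both (0.14 and 0.61). TRIAP1, a small inhibitor of apoptosis, was below both (-0.64 and -1.16). NINJ1, a membrane protein of plasma membrane rupture, had 2140, 1145, and 1207 reads in the H460, H1299, and A549 controls and differed by -1.12 and -0.81.

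TP53INP1, whose product binds p53 and acts in autophagy and apoptosis, was the member with the largest excess in H1299 over H460. Its counts were 615 in the H460 control, 3526 in the H1299 control, and 1383 in the A549 control, or 4.91-fold above H460 (log2 difference 2.29, interval 2.17 to 2.42) and 1.53-fold above A549 (0.62, 0.53 to 0.71). All 3 lines differed from each other beyond counting error, with H1299 highest, and A549 was 1.68 above H460 on the log2 scale.

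The 4 genes of DNA repair and nucleotide supply and the 4 of metabolism and mitochondria were mostly closer to H460 than to A549 in the H1299 control. XPC and DDB2, damage sensors of nucleotide excision repair, were below both lines, XPC by -0.59 and -1.22 and DDB2 by -0.86 and -2.09. POLH, the translesion polymerase eta, was above both (0.82 and 0.84), and RRM2B, the p53-inducible ribonucleotide reductase subunit, was between them (0.40 and -0.73). FDXR, a mitochondrial ferredoxin reductase, was below both (-0.64 and -2.31). TP53I3, a quinone oxidoreductase also called PIG3, was above H460 (0.65) and below A549 (-1.38), and TIGAR, a regulator of glycolysis, differed by 0.14 and -0.52.

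SPATA18 encodes MIEAP, a protein of mitochondrial quality control, and lies on chromosome 4 (52051304 to 52097299). It had 132 reads in the H460 control and 349 in the A549 control, 111 and 285 after siMALAT1, and 0 in both H1299 libraries. A count of 0 allows up to 3 reads in a library, which puts the H1299 control at least 51.3-fold lower than H460 and at least 193-fold lower than A549.

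Of the last 3 members, GDF15 was the one at least 2-fold below both lines (9.47% of genes with a read in each library were). GDF15 is a secreted growth factor of the TGF-beta family, located on chromosome 19 (18382170 to 18389176). It had 2822, 402, and 3504 reads in the H460, H1299, and A549 controls and 1794, 228, and 2412 after siMALAT1. The H1299 libraries were the lowest of the 6, and in the controls the difference was 8.17-fold from H460 and 14.4-fold from A549. ZMAT3, an RNA-binding zinc finger protein whose match to the consensus was exact, differed by only -0.70 and -0.32 on the log2 scale, and SUSD6, a membrane protein, by -0.98 and -0.01.

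The matches to the consensus can be set beside this split. Of the 9 members at least 2-fold below both lines, 7 had annotated starts and 5 of these (71.4%) had a match, with CYFIP2 and PERP without. Of the other members, 20 had starts and 7 (35%) had a match. These shares rest on few genes and were not tested, and the exact match of ZMAT3 falls among the members that differed less.

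Per transcript length, in the deposited TPM values, which are scaled for length and depth, the members spanned a wide range in each line. CCNG1 was the highest member in 5 of the 6 libraries, at 111 to 181 TPM over all 6, and PLK2 was highest in the A549 control at 144 TPM. PLK2 was 101 TPM in the H460 control and 20.9 TPM in the H1299 control. Under 1 TPM in both H1299 libraries were 3 members: PHLDA3 (0.0316 TPM in the control), BTG2 (0.359 TPM), and SPATA18 (0 TPM). SPATA18 alone was under 1 TPM in H460, and no member was in A549. The summed level of the 33 members was 728 TPM in the H460 control, 551 TPM in the H1299 control, and 1077 TPM in the A549 control. After siMALAT1 the sums were 649 TPM (H460), 603 TPM (H1299), and 1027 TPM (A549). CCNG1 alone made up 134, 181, and 111 TPM of the H460, H1299, and A549 control sums.

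**Figure D3:**
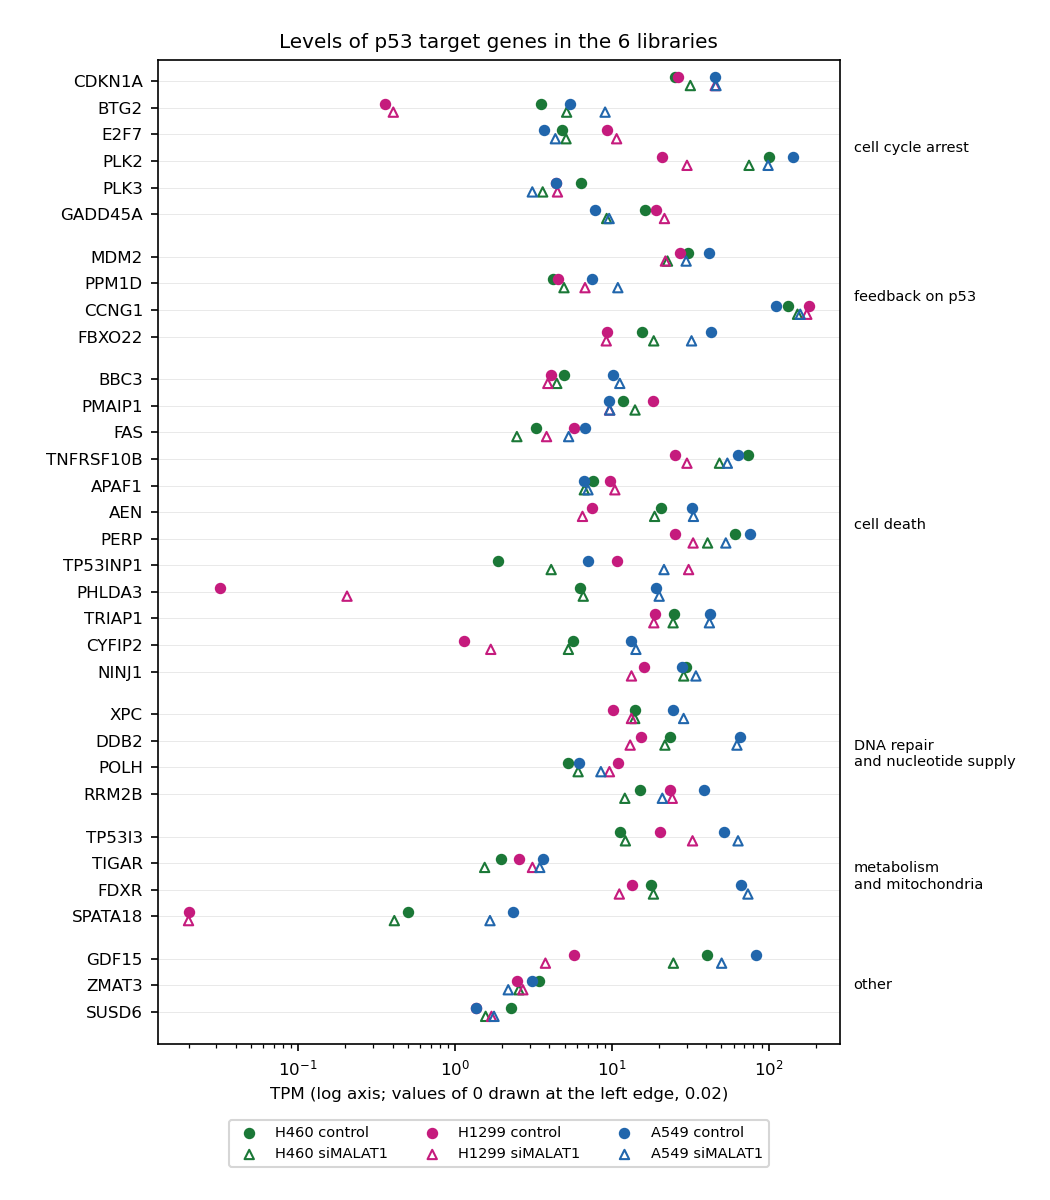
Level of each member in TPM (horizontal axis, log scale, with 0 drawn at 0.02) in the 6 libraries, with members grouped by role. Filled circles are controls and open triangles are siMALAT1 libraries. The H1299 symbols of BTG2, PHLDA3, CYFIP2, SPATA18, and GDF15 lie apart to the left of the other lines.

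The 2 lines that keep p53 also differed from each other, which gives a measure of how far lines vary on their own. The A549 control was at least 2-fold above the H460 control for 7 of 32 members (TP53INP1, PHLDA3, CYFIP2, DDB2, RRM2B, TP53I3, and FDXR), where 14.2% of genes were. It was at least 2-fold below for GADD45A only, where 14.3% of genes were. The median difference of the 32 members, A549 minus H460, was 0.39 on the log2 scale, where that of all genes was -0.002. The largest excess in A549 was that of TP53I3, at 2.03 on the log2 scale (interval 1.93 to 2.14), and H1299 lay between the other lines for this gene. FDXR was 1.67 and DDB2 was 1.23 higher in A549 than in H460, a large part of their distance between A549 and H1299.

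The next comparison asked whether the targets moved after siMALAT1. TP53INP1 was the only member at least 1.5-fold higher in all 3 lines, by 2.41-fold in H460, 2.71-fold in H1299, and 3.08-fold in A549. GDF15 was lower in each line, with log2 fold changes of -0.57, -0.68, and -0.68, and MDM2 was lower in each by a small and even amount. The median log2 fold change of the 32 members was near that of all genes, at 0.01 against 0.02 (H460), 0.02 against 0.02 (H1299), and 0.03 against 0.01 (A549).

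With 1 library per line and condition there is no test within a line, and genes were counted from a fold of 1.5, a log2 value of 0.585. In H460, 2 members were higher, BTG2 and TP53INP1 (9.5% of all genes were), and 2 were lower, PLK3 and GADD45A (10.3% of genes). In H1299, 4 were higher, CDKN1A, TP53INP1, PHLDA3, and TP53I3 (11.7% of genes), and 2 were lower, PMAIP1 and GDF15 (11.4% of genes). In A549, 2 were higher, BTG2 and TP53INP1 (11.5% of genes), and 2 were lower, RRM2B and GDF15 (11.4% of genes). In all 3 lines, 1 member of 32 was higher, against 1.19% of genes, and 0 were lower, against 1.28%. By direction alone, 8 of 32 were higher in all 3 lines (21.4% of genes) and 6 were lower in all 3 (18.8% of genes), so the members' shares lay near those of all genes.

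Across the 3 lines, with each siMALAT1 library paired with its own control, edgeR's quasi-likelihood test called 0 of 33 members at an adjusted p under 0.05 on 2 residual degrees of freedom. It called 1 of 19122 genes, or 0.00523%, which was MALAT1. At an unadjusted p under 0.05, 7 members passed, 4 higher (BTG2, PPM1D, TP53INP1, and TP53I3) and 3 lower (MDM2, FAS, and GDF15), where 15% of genes passed. DESeq2's Wald test called 3 members higher (TP53INP1, PPM1D, and TP53I3) and 2 lower (GDF15 and MDM2), where it called 5.96% of genes. It gave an adjusted p to 13561 of the 19122 genes and to all 33 members. The share among genes that could be called was therefore higher than 5.96%.

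TP53INP1 counts were 3526 and 8732 in the H1299 control and siMALAT1 libraries, against 615 and 1400 for H460 and 1383 and 4714 for A549. The siMALAT1 library was above the control in each line, and the log2 fold changes averaged 1.44 ± 0.18 (SD, n = 3 lines). The paired edgeR estimate was 1.43 (adjusted p of 0.0734). Without H460 the edgeR test called it, with an adjusted p of 0.0196, on 1 residual degree of freedom. That fit called 51 genes higher and 112 lower among 20386. The edgeR adjusted p was 0.131 without H1299 and 0.46 without A549.

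GDF15, lower by -0.65 ± 0.06 over the 3 lines, had an edgeR estimate of -0.66 and an adjusted p of 0.0866. The change was nearly the same in H1299 as in the lines with p53, although its control level there was 8.17-fold to 14.4-fold lower. MDM2 was lower by -0.35 ± 0.03, with log2 fold changes of -0.36, -0.31, and -0.37 and an edgeR adjusted p of 0.204. PPM1D was higher by 0.48 ± 0.10 (edgeR adjusted p of 0.156), TP53I3 by 0.42 ± 0.17 (0.207), and BTG2 by 0.52 ± 0.36 (0.258). FAS was lower by -0.35 ± 0.11 (0.259). CDKN1A was 0.71 higher in H1299 and 0.46 higher in H460, with 0.00 in A549, and its edgeR adjusted p was 0.339.

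The remaining members differed by line or stayed close to 0. PLK3 was lower by -0.66 in H460 and -0.51 in A549 on the log2 scale and at -0.01 in H1299, and GADD45A was at -0.68, 0.11, and 0.31 (H460, H1299, A549). RRM2B was at -0.87 in A549 (interval -0.92 to -0.81), with -0.18 in H460 and -0.02 in H1299. XPC was slightly higher throughout (0.23, 0.20, 0.27), as was E2F7 (0.21, 0.14, 0.25), while BBC3 (-0.06, -0.07, -0.04) and FBXO22 (0.01, -0.11, -0.03) moved little. SPATA18, read in 2 lines only, was at -0.17 in H460 (interval -0.55 to 0.21) and -0.44 in A549 (-0.67 to -0.21). ZMAT3 was at -0.29, 0.05, and -0.47, and SUSD6 at -0.40, 0.26, and 0.39.

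**Figure D4:**
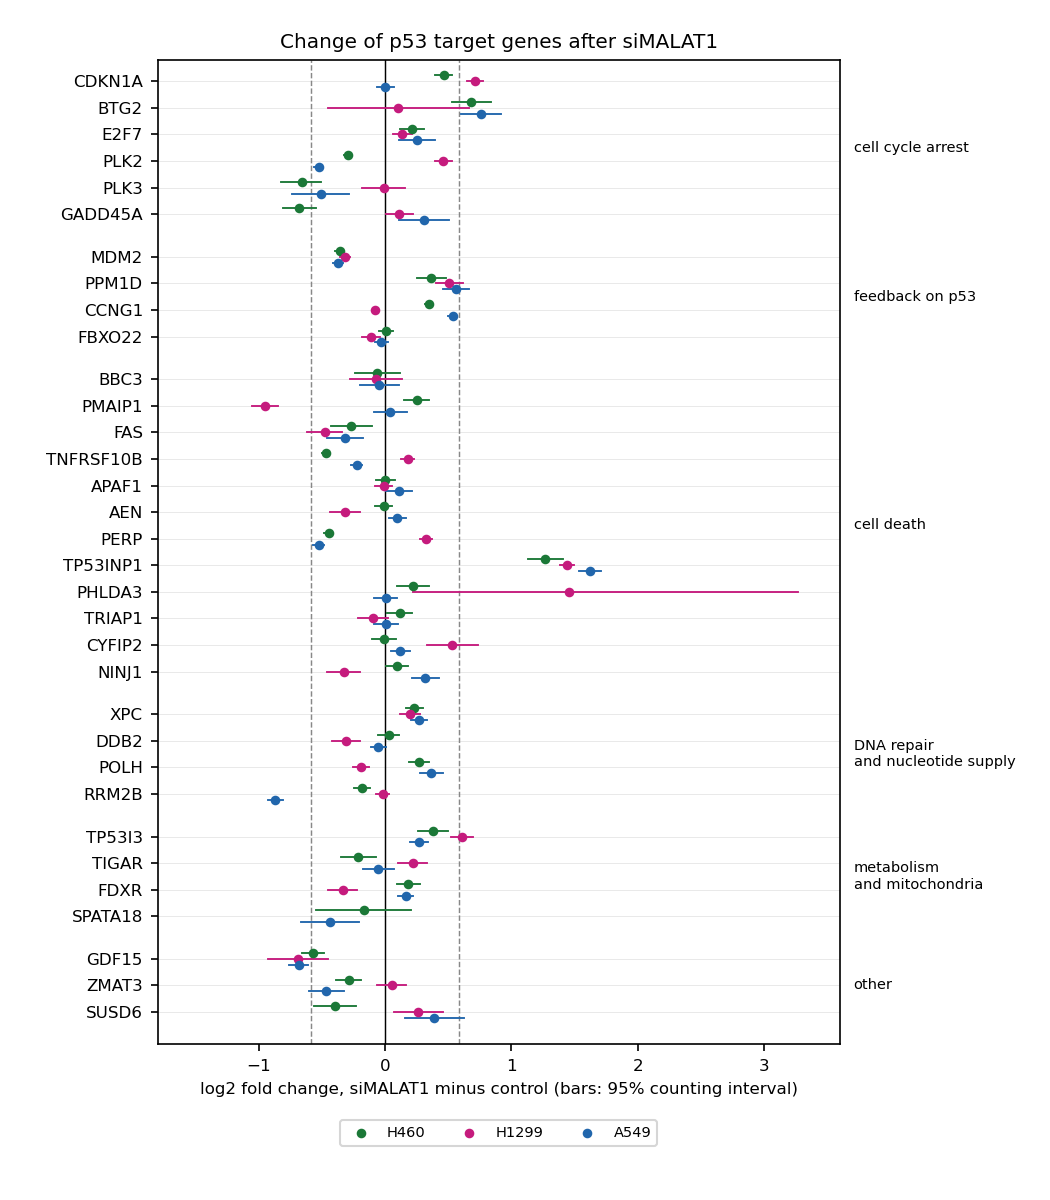
Log2 fold change after siMALAT1 (horizontal axis, siMALAT1 minus control, log2 of scaled count plus 1) of each member in H460, H1299, and A549, grouped by role, with bars for the 95% counting interval and dashed lines at a fold of 1.5. TP53INP1 lies to the right of the line in all 3 lines, PLK2, TNFRSF10B, and PERP are positive in H1299 and negative in the other lines, and SPATA18 has no H1299 point because it had 0 reads there.

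The last comparison asked whether the change after siMALAT1 in H1299 differed from that in the lines with p53. PLK2, TNFRSF10B, and PERP were higher after siMALAT1 in H1299 and lower in both other lines, while CCNG1, NINJ1, POLH, and FDXR were lower in H1299 and higher in both others. These 7 of 32 members, 21.9%, had counting intervals that left out 0 in each line, where 6.3% of genes were opposed in this way. Another 8 members went the same way in all 3 lines by the same rule (18.6% of genes): E2F7, MDM2, PPM1D, FAS, TP53INP1, XPC, TP53I3, and GDF15. The intervals do not cover variation between cultures. They also narrow as reads increase, and the shares of all genes include genes with few reads, whose intervals seldom leave out 0. The shares of members and of all genes are therefore not matched for read depth.

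edgeR's test of the difference, H1299 against the mean of H460 and A549, called 0 of 33 members and 0 of 19122 genes (0%) at an adjusted p under 0.05, on 1 residual degree of freedom. At an unadjusted p under 0.05 it gave 6 members, PLK2, TNFRSF10B, PERP, and PHLDA3 higher in H1299 and CCNG1 and PMAIP1 lower, where 7.94% of genes passed. DESeq2 called PLK2 alone, with an adjusted p of 0.0489, where it called 0.664% of genes. It gave an adjusted p to only 5776 of the 19122 genes, and members left without one, PMAIP1 and PHLDA3 among them, could not be called.

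PLK2 was 0.46 higher on the log2 scale in H1299 (interval 0.40 to 0.53) and lower in H460 (-0.29, -0.33 to -0.26) and A549 (-0.53, -0.56 to -0.49). The edgeR estimate of the difference was 0.88 with an adjusted p of 0.518. PERP had log2 fold changes of -0.44, 0.32, and -0.52, and an estimate of 0.82 with an edgeR adjusted p of 0.518. TNFRSF10B had -0.47, 0.18, and -0.22, and an estimate of 0.53 (edgeR adjusted p of 0.628). For these 3 genes the lines lay closer together in the siMALAT1 libraries than in the controls. The baseline comparison uses the same control libraries, so both sets of values share them.

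PMAIP1 had the largest difference in the other direction. H1299 had 2440 reads in the control and 1155 after siMALAT1, against 1655 and 1860 in H460 and 877 and 999 in A549. Its log2 fold change in H1299 was -0.95 (interval -1.05 to -0.85), with 0.25 in H460 and 0.04 in A549. The H1299 control was the highest of the 3 controls, and the H1299 siMALAT1 library was below both others, by -0.86 and -0.25. The edgeR estimate was -1.09 with an unadjusted p of 0.00468 and an adjusted p of 0.491. BTG2 followed with an estimate of -0.61 (edgeR adjusted p of 0.734), from 0.10 in H1299 (interval -0.45 to 0.66, with 57 and 56 reads) against 0.68 and 0.76 in H460 and A549. NINJ1 had 2163 reads in H460, 834 in H1299, and 1663 in A549 after siMALAT1, with log2 fold changes of 0.10, -0.33, and 0.32. PHLDA3 had the largest estimate, 1.51 (edgeR adjusted p of 0.60), but it rests on 6 and 17 reads in H1299, and its log2 fold change there of 1.45 has a counting interval of 0.22 to 3.26.

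Other genes of the pathway came from 4 further lists. Of 32 further p53 targets, 26 had a read in each library, and 8 of these were at least 2-fold below both lines in the H1299 control, against the 9.47% of all genes, and 1, CD82, was at least 2-fold above both, against 9.15%. Ranked by the smaller of the 2 differences, the first were EDA2R, a TNF receptor family member with 2296, 56, and 1666 reads in the H460, H1299, and A549 controls, and DRAM1, a lysosomal gene of autophagy with 3007, 830, and 2247. ABHD4, a lipase gene, had 1348, 235, and 596 reads, and LIF, a cytokine gene, had 11968, 2325, and 4752. CD82, a tetraspanin gene, ran the other way, with 6, 2399, and 63 reads. The median difference of the 26 was -0.81 from H460 and -1.14 from A549. In edgeR's test over the controls 0 of 30 passed at an adjusted p under 0.05 in either direction, and 5 passed at an unadjusted p, all lower, where 7.35% of genes passed in either direction.

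Of the 6 non-coding p53 targets found, MIR34AHG and PURPL were at least 2-fold below both lines, where 8.82% of the genes with a read in any library were. MIR34AHG, the host gene of the microRNA miR-34a, had 1203, 110, and 995 reads in the H460, H1299, and A549 controls. PURPL, a long non-coding RNA that restrains p53, had 314, 0, and 949, at least 122-fold and at least 526-fold lower in H1299 by the limit of 3 reads. Of 25 genes of the p53 family and its regulators, 0 were at least 2-fold below both lines (8.82% of genes with a read in any library were). Among those with a read in any library, 3 were at least 2-fold above both (17% of genes were). These were TP73, a p53 relative, with 19, 365, and 16 reads, PPP1R13L, the inhibitor iASPP, with 135, 988, and 100, and CDKN2A, which encodes p16 and ARF, with 0, 2938, and 0. ARF blocks MDM2, and the CDKN2A locus is known to be deleted in A549 and H460. The part of TP73 and CDKN2A in the target levels of H1299 was not tested.

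Repression by p53 runs mostly through p21 and the DREAM complex, which silences genes of the cell cycle. Of 16 such genes, 10 were above both lines in the H1299 control (37% of all genes) and 2 of them by at least 2-fold (9.15% of genes), CDC20, with 2633, 9521, and 2574 reads, and FOXM1, with 1865, 6340, and 1261. Their median difference was 0.71 from H460 and 0.35 from A549. After siMALAT1 their median log2 fold change was -0.59 in H1299, against 0.16 in H460 and 0.01 in A549, and 9 of the 16 were at least 1.5-fold lower in H1299, where 11.4% of genes were. In edgeR's test of the difference between H1299 and the other lines, 0 of 16 passed at an adjusted p under 0.05 and 10 passed at an unadjusted p, all lower in H1299, where 7.94% of genes passed in either direction. CDKN1A was 0.71 higher on the log2 scale in the same library, and whether it had a part in this was not tested.

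For the change over the 3 lines, edgeR called 0 genes of these 4 lists at an adjusted p under 0.05. At an unadjusted p, 6 of 28 further targets were higher and 3 were lower, where 15% of genes passed. SESN1, a sestrin of the antioxidant and nutrient response, was the one further target at least 1.5-fold higher in all 3 lines, with counts from 617 to 1138, 977 to 1575, and 833 to 2359 in H460, H1299, and A549 (edgeR estimate 1.03, adjusted p of 0.0734). CMBL, a hydrolase gene, was the one lower, from 2783 to 1517, 980 to 386, and 586 to 254 (edgeR estimate -1.13, adjusted p of 0.0734). Among the regulators TP63 met the rule in all 3 lines, but it had 2 reads in the H460 control and 2 in the H1299 control.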

How the data were processed

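Total RNA from control and siMALAT1 cells of H460, H1299, and A549 was sequenced, 1 library each. Per the labels and methods, the authors removed ribosomal RNA, used a stranded kit, and sequenced paired ends. The submitters' processing notes name bcl2fastq 2.20.0, Trimmomatic, HISAT2 2.1.0, and StringTie 1.3.4b, and whether counting used strand is not given in the sources used here. The authors deposited read counts per gene, which are whole numbers without normalization, and TPM, scaled for length and depth. Another 18 columns of per-sample values match none of these samples and were not used. Totals of 42506818 to 68515992 reads limit the precision of low genes most.

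Counts were scaled with DESeq2 1.42.0 size factors (RLE), and 1 was added before taking log2. The intervals are exact 95% Clopper-Pearson intervals on the split of reads, which cover counting error only. Tests were edgeR 4.0.16's quasi-likelihood test with TMM, filterByExpr, and Benjamini-Hochberg adjustment over all genes tested, with DESeq2's Wald test as an alternative. Over the controls, DESeq2 gave an adjusted p to 17688 of 21942 genes and to all 33 members. The 6.23% given for that comparison is of all 21942, and so understates the share among genes that could be called. Control and siMALAT1 libraries were paired by cell line, and deviations of the members of a pair from the group means correlated at 0.880, 0.906, and 0.874. The response element search used RefSeq starts on GRCh38 (1.37 starts per member searched, 1.43 per gene with a read in each library), and 35116 of 35116 promoter windows equalled the genome used. The coordinates of genes are those of the deposited table, on GRCh38.

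The members, their roles, and the gene lists were chosen with earlier results of these data known. Counts per library are given for members at least 2-fold apart from both lines at baseline, those changed at least 1.5-fold in the same direction in 3 lines or in opposite directions in 2 (no member did the latter), those past an adjusted p of 0.05 in edgeR, and the 3 largest interaction estimates in each direction. The same rule, at most 5 genes a list, was used for other lists. A further gene fixed for printing is not reported here. CDKN1A, MDM2, SESN1, and CMBL were given counts after their values were seen, and the rule that keeps SPATA18 was added after the data were seen. Alternatives were other scalings, pseudocounts, filters, thresholds, and tools, and leaving out a line. The scripts were tested on simulated counts. R 4.3.3, Python 3.11.15, pandas 2.3.3, numpy 2.4.6, and matplotlib 3.10.9 were used.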

Additional observations from a re-analysis of the deposited data

Results flagged for a closer look

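The change after siMALAT1 in H1299 ran opposite to that in both H460 and A549 for 7 members, with counting intervals that left out 0 in each line. The difference between H1299 and the mean of the others, on the log2 scale, was 0.88 for PLK2, 0.82 for PERP, 0.53 for TNFRSF10B, -0.51 for CCNG1, -0.52 for NINJ1, -0.50 for POLH, and -0.50 for FDXR. In edgeR's test of that difference none of the 7 passed at an adjusted p under 0.05, with adjusted p-values from 0.518 to 0.652, and 4 passed at an unadjusted p (PLK2, PERP, TNFRSF10B, and CCNG1). DESeq2 called PLK2 with an adjusted p of 0.0489 and gave PERP 0.0565. The 7 were picked for opposed changes in these same libraries, which both tests use again. How many of them passed is therefore no separate support for the difference. Over all genes, 6.3% were opposed in this way, a share that includes genes with few reads and is not matched to the members for read depth.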

How the results depend on the processing

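Each arm of a comparison within a line has 1 library, p53 status is carried by 1 line against 2, and the tests have 1 or 2 residual degrees of freedom. At a log2 fold change of 1.5 in place of a fold of 1.5, 1 member was higher in A549, 0 were in H460 or H1299, and 0 were lower in any line. With log2(TPM + 1), 1 was higher and 4 were lower in H460, and 1 was lower in H1299. At baseline a 1.5-fold threshold gave 14 members below both lines and 3 above, in place of 8 and 0. H1299 against H460 or A549 alone gave 9 to 15 lower and 1 to 2 higher (9 and 1 against H460, 15 and 2 against A549). In the siMALAT1 libraries 10 were lower. The shares of all genes at these other thresholds, scalings, and single-line comparisons are not given here. Whether the members' counts at these settings exceed those shares therefore cannot be read from them. DESeq2 called 3 members higher and 2 lower in the paired comparison, 7 lower at baseline, and 1 higher in the difference between lines, where edgeR called 0. Leaving out a line in the paired edgeR test gave 0 to 1 members higher, the 1 being TP53INP1 without H460. In that fit 51 genes were higher and 112 were lower among 20386. With the cell line left out of the design, so with no replicate block for the pairing, edgeR called 0 members and 0 genes. The fit with the block also called 0 members, so there was no call of a member to lose. At an unadjusted p under 0.05, 161 genes passed in edgeR without the block and 2863 with it. Leaving out each line, the paired estimate ran from -0.18 to 0.038 for AEN (positive without H1299) and from -0.41 to 0.069 for PLK2 (positive without A549). The cause of these differences was not tested. Leaving out a line was not possible for the difference between lines, where no residual degrees of freedom remain. Scaling by the library total moved the median of all genes in H1299 against H460 by 0.26, and in A549 against H460 by 0.18. With TPM these shifts were 0.12 and 0.11. Low read counts of PHLDA3, SPATA18, and BTG2 limit the precision of their values in H1299.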
